A study of Mus musculus with 8 samples.

Results

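Secreted regulators of Wnt signalling and Wnt ligands were followed in mouse cortex after a cryolesion, which injures a small area of the brain surface by freezing. The 10 genes were the secreted regulators Frzb, Sfrp1, Sfrp2, Wif1, Dkk2 and Dkk3 and the ligands Wnt4, Wnt7a, Wnt7b and Wnt10a, out of 22911 named genes on the array. Frzb was selected on its measured fall after cryolesion in floxed mice, where it was among the lowest changes of all, and the other 9 genes are relatives set beside it. Every probe named for these genes was used, which gave 13 probes: 2 each for Frzb, Dkk3 and Wnt7b and 1 for each of the other 7 genes.

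Total RNA came from the right fronto-parietal cortex of 16 mice in 4 groups of 4: cryolesioned mice deficient in microglia-derived Il6, cryolesioned floxed mice, unlesioned control mice deficient in microglia-derived Il6, and control floxed mice. They are called Il6-deficient cryolesioned, floxed cryolesioned, Il6-deficient control and floxed control animals here. The deficiency is described as one of microglia-derived Il6, so other cells of the tissue may still make the cytokine, and the cortex dissected was the one on the injured side. The Cre driver, the age of the mice, the time after injury and whether controls had surgery are not given in the sources used here.

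Wnt proteins are secreted, lipid-modified ligands that bind Frizzled receptors together with the co-receptors Lrp5 or Lrp6, and in the canonical branch this stabilises beta-catenin, which then acts with TCF/LEF factors on target genes. Several secreted proteins act before the receptor. Frzb (also called sFRP3), Sfrp1 and Sfrp2 carry a cysteine-rich domain like that of Frizzled receptors and can bind Wnt proteins, and Wif1 binds Wnt proteins through a different domain. Dkk2 binds Lrp5 and Lrp6, while Dkk3 is a divergent member of the Dickkopf family. In the brain, Wnt7a and Wnt7b are known for acting on endothelial cells in vessel growth and blood-brain barrier formation.

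Each of the 8 arrays carried RNA of 2 animals, 1 labelled with Cy5 and 1 with Cy3, in a closed loop of 4 pairings with 2 dye-swapped arrays each. Il6-deficient cryolesioned animals were read against floxed controls on 1 side of the loop (the deficient-lesion side), and floxed cryolesioned animals against Il6-deficient controls on another (the floxed-lesion side). The lesion side set the 2 cryolesioned groups against each other and the control side the 2 control groups, so no array held an injured and an uninjured animal of 1 genotype. Depending on the channel, 59.2% to 65.9% of probes were detected well above background, and the number of arrays limits the precision. The brighter probe of Il6, the targeted gene, was detected in 0 of 4 Il6-deficient cryolesioned and 3 of 4 floxed cryolesioned animals, and in no control animal of either genotype. The other Il6 probe was detected in 0 of 4 Il6-deficient cryolesioned and 1 of 4 floxed cryolesioned animals, and in no control. All 8 cryolesioned animals and 4 of 8 controls (3 Il6-deficient, 1 floxed) had Y-linked transcripts above background. Xist was above background in the other 4 controls (1 Il6-deficient, 3 floxed). Sex was therefore partly confounded with injury and, among controls, with genotype. The genotype differences in controls given below carry this limit. All 10 genes passed the filter on dim probes.

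Frzb stood apart in the set after injury, but it was chosen for its fall in floxed animals, so this in part restates the choice. Its mean log2 intensity was 7.44 ± 0.44 in Il6-deficient cryolesioned animals, 7.23 ± 0.47 in floxed cryolesioned animals, 8.997 ± 0.16 in Il6-deficient controls and 9.06 ± 0.26 in floxed controls (SD, n = 4 each). The 250 bases before its annotated start, on the minus strand of GRCm38.p6 at chr2:80447397-80447646, are shown because the set was built around Frzb. Capitals mark the only matches to 2 motifs searched on both strands, TTCNNNGAA (bound by STAT factors, which act downstream of Il6 receptors) and CTTTGA (the core of TCF/LEF sites, here on the opposite strand).
Frzb: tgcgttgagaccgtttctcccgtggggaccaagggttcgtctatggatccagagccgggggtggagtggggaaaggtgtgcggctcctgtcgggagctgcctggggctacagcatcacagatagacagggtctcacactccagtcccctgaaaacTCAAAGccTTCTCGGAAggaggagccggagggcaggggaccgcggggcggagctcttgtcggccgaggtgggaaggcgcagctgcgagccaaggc
The TCF/LEF match begins at position -95 and the STAT match at position -87 from the start, and the matches do not overlap. Of 32851 windows of this length in the RefSeq table, 7.02% hold the STAT motif and 13.83% the TCF/LEF motif. Windows were found for 6 of the 10 genes, and those of Sfrp2, Wif1, Dkk2, Wnt4 and Wnt7a held neither set of letters. Sfrp1, Dkk3, Wnt7b and Wnt10a had no entry. A match describes the letters of this window and shows no binding.

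By animal, Frzb measured 7.58, 7.20, 7.98 and 6.99 in Il6-deficient cryolesioned animals and 7.05, 7.01, 7.93 and 6.93 in floxed cryolesioned animals. It measured 9.04, 8.79, 8.97 and 9.19 in Il6-deficient controls and 9.0, 8.93, 9.44 and 8.88 in floxed controls. All 8 cryolesioned animals lay below all 8 controls, while the groups of either state overlapped between genotypes. The share of all features with such a separation was not counted, and the floxed animals had served to choose Frzb. Animal 3 of each cryolesioned group was the highest of its group. In bulk tissue, fewer cells of a type and less RNA per cell cannot be told apart.

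In Il6-deficient animals, Frzb fell by 1.85 ± 0.19 on the log2 scale (SE; 95% confidence interval -2.29 to -1.41; adjusted p = 0.00875, limma with Benjamini-Hochberg adjustment over 29362 features), which left a fold of 0.277 of the control level. This change was the 4th lowest among all features. No array paired Il6-deficient cryolesioned with Il6-deficient control animals, so the estimate runs through the floxed animals, whose fall chose Frzb. Its test is therefore not independent of that choice. Leaving out 1 array kept the size between -1.99 and -1.68, but the adjusted p was above the threshold of 0.05 when array 1 of the control side (0.0513), array 2 of the lesion side (0.0521) or array 2 of the deficient-lesion side (0.0518) was left out. Over all 18 alternatives of processing and fit, the change in Il6-deficient animals ranged more widely, from -2.58 to -1.62. In floxed animals, where Frzb was chosen, the change was -1.87 ± 0.19 and also the 4th lowest, and no test is given. The mean levels, cryolesioned minus control, differed by -1.56 in Il6-deficient and -1.83 in floxed animals, less alike than the fitted changes. The interaction of cryolesion and Il6 deficiency was 0.02 ± 0.26 (95% confidence interval -0.61 to 0.64). It contains the floxed change that chose Frzb, so no test is given for it either. These arrays bound a genotype difference in the Frzb response to that interval and do not show that the responses were alike.

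Ratios on the single arrays show what the fitted values are made of, and since the floxed animals on them also chose Frzb, they are a description. The log2 ratios of Frzb were -1.46 and -1.89 for Il6-deficient cryolesioned over floxed control animals, and -1.92 and -2.18 for floxed cryolesioned over Il6-deficient control animals. On arrays that paired genotypes within a state, they were -0.35 and 0.28 for Il6-deficient over floxed cryolesioned animals and 0.04 and -0.14 for Il6-deficient over floxed controls. By this probe, the signs of the genotype ratios differed between the 2 arrays of each pairing. By the other probe they differed in cryolesioned animals (-0.13 and 0.24) but not in controls (0.09 and 0.05). The other Frzb probe gave -1.75 ± 0.10 for cryolesion in Il6-deficient animals and -1.74 ± 0.10 in floxed animals.

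**Figure D1:**
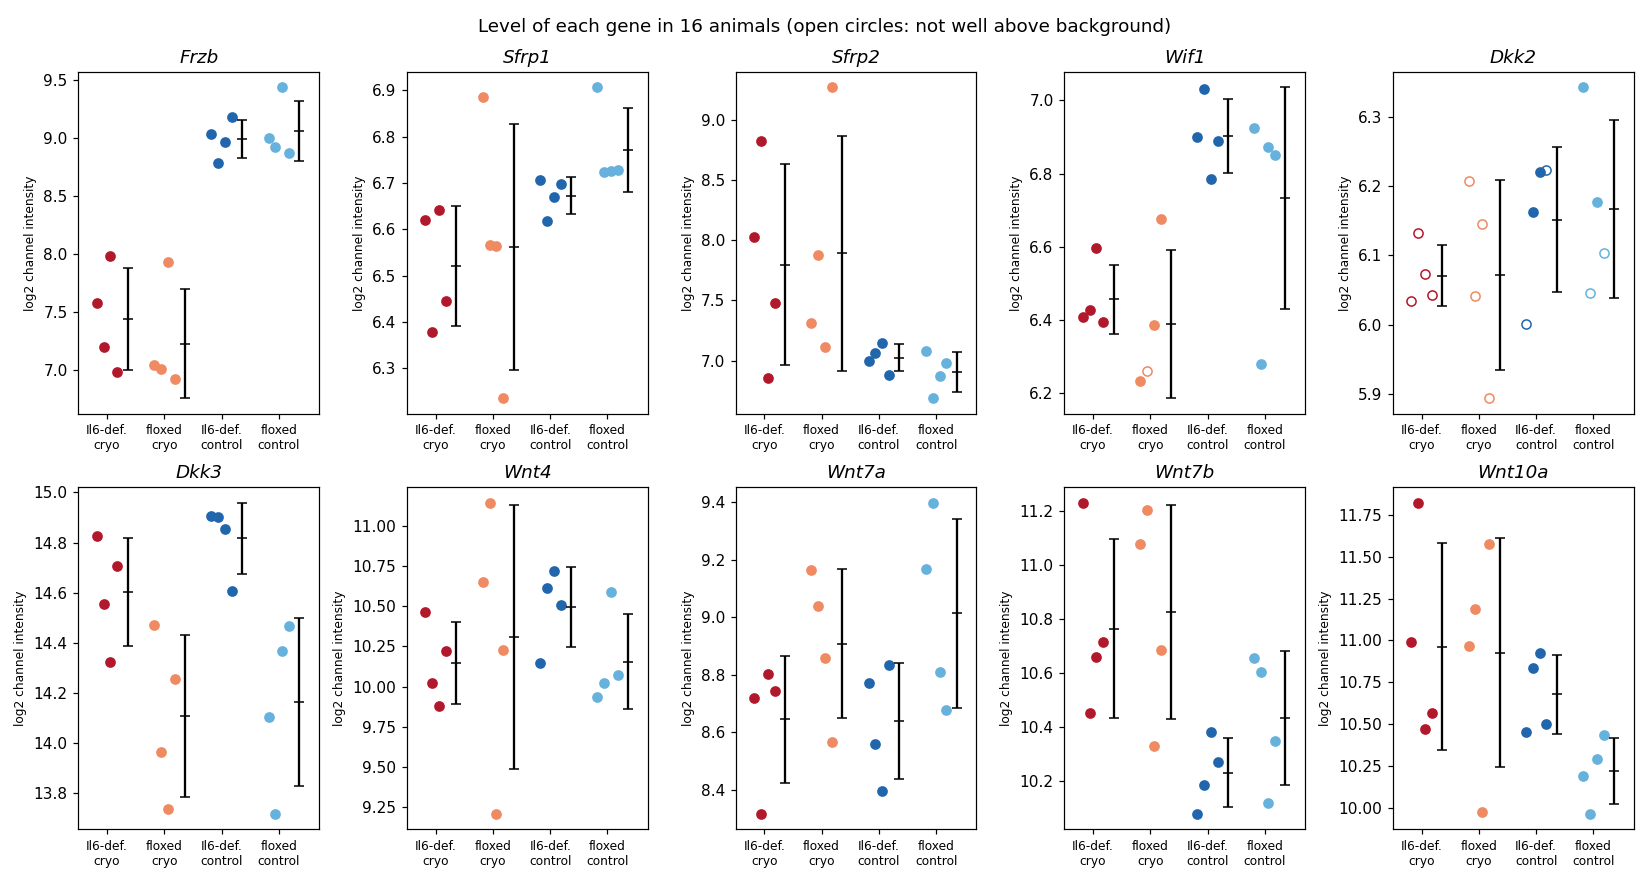
Log2 channel intensity (y axis, a separate scale for each gene) of the 10 genes in each animal, with the 4 groups along the x axis. Filled circles are animals well above background, open circles are those not well above it, and bars give mean ± SD (n = 4). Frzb is the only panel in which all 8 cryolesioned animals lie below all 8 controls, with cryolesioned animals between 6.93 and 7.98 and controls between 8.79 and 9.44. Frzb was chosen for its fall in floxed animals, and the share of all features with such a separation was not counted.

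The order of the Frzb group means was floxed cryolesioned, Il6-deficient cryolesioned, Il6-deficient control and floxed control, and only the step between injured and uninjured groups exceeded the spread within groups. Il6 deficiency changed the fitted Frzb level by 0.08 ± 0.16 in cryolesioned animals (95% confidence interval -0.30 to 0.46) and by 0.06 ± 0.16 in controls (-0.32 to 0.45), neither past the threshold. Frzb overlapped between the sexes among controls: the 4 controls with Xist lay between 8.79 and 9.44 and the 4 with Y-linked transcripts between 8.93 and 9.19. In this loop a sex term for the change in Il6-deficient animals amounts to leaving out array 2 of the control side, so it gives no separate check on sex. Controls hybridised beside an injured animal (4 animals) lay between 8.88 and 9.44, and those hybridised beside another control (4 animals) between 8.79 and 9.04.

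Across the 10 genes, Frzb was the only one called after cryolesion in Il6-deficient animals, 1 of 10 against 2.73% of all features. The median change of the 10 genes was 0.06 against -0.01 over all features. The Frzb estimate there runs through floxed animals, so this call is not independent of the choice of Frzb. In floxed animals 1 of 10 was past the threshold against 3.05% of all features, with a median change of -0.06 against -0.01, and since that comparison chose Frzb nothing is read from it. For Il6 deficiency in cryolesioned animals, Il6 deficiency in controls and the interaction, 0 of 10 genes and 0% of all features were called by limma. At an unadjusted p under 0.05 these comparisons held 0, 4 and 1 of the 10 genes and 2529, 1299 and 972 features. Groups of 4 animals did not overlap for 3 of the 10 genes after cryolesion in Il6-deficient animals (17.7% of all features), for 2 after cryolesion in floxed animals (15% of all features), for 0 between genotypes after cryolesion (4.36% of all features) and for 3 between genotypes in controls (4.2% of all features).

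**Figure D2:**
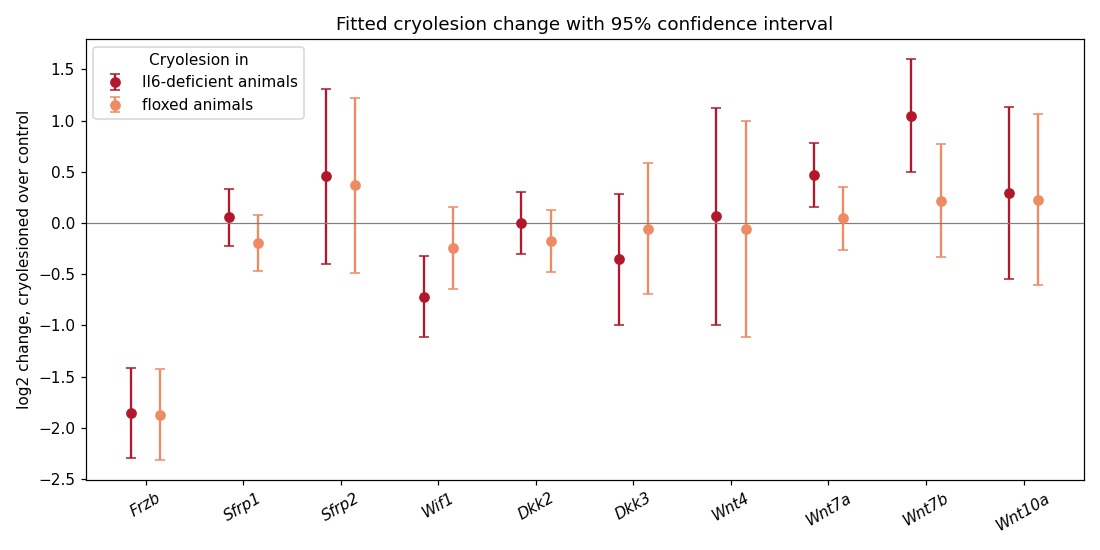
Fitted log2 change of cryolesioned over control animals (y axis) for the 10 genes (x axis), in Il6-deficient animals (left point of each pair) and floxed animals (right point). Points are limma estimates and bars are 95% confidence intervals. Frzb lies at -1.85 and -1.87, and in Il6-deficient animals the intervals of Wnt7b, Wnt7a and Wif1 also leave out 0 although their adjusted p did not pass the threshold.

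Neither of the other Frizzled-related genes passed the test. Sfrp1 had 6.62, 6.38, 6.64 and 6.44 in Il6-deficient cryolesioned animals, 6.88, 6.57, 6.56 and 6.24 in floxed cryolesioned animals, 6.71, 6.62, 6.67 and 6.70 in Il6-deficient controls and 6.91, 6.72, 6.73 and 6.73 in floxed controls. The injured and uninjured groups overlapped in both genotypes. Its cryolesion change was 0.05 ± 0.12 in Il6-deficient animals (95% confidence interval -0.22 to 0.33) and -0.20 ± 0.12 in floxed animals. All 4 Il6-deficient controls lay below the 4 floxed controls, by a fitted 0.20 (log2 change -0.20 ± 0.10, adjusted p = 0.983).

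Sfrp2 varied widely between injured animals. It measured 8.02, 8.82, 6.86 and 7.48 in Il6-deficient cryolesioned animals and 7.31, 7.87, 7.11 and 9.27 in floxed cryolesioned animals, against 7.00, 7.07, 7.15 and 6.88 in Il6-deficient controls and 7.08, 6.69, 6.87 and 6.98 in floxed controls. The SD was 0.83 in Il6-deficient cryolesioned and 0.97 in floxed cryolesioned animals, against 0.11 in Il6-deficient and 0.17 in floxed controls. Floxed cryolesioned animals all lay above floxed controls, while Il6-deficient cryolesioned animal 3 lay below all 4 of its controls. The fitted change was 0.45 ± 0.36 in Il6-deficient animals (adjusted p = 0.555) and 0.37 ± 0.36 in floxed animals. Differences between the mean levels were larger, 0.77 in Il6-deficient and 0.99 in floxed animals, since the fit uses only ratios between the 2 animals of an array.

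Wif1, the Wnt inhibitory factor, was near the lower end of the detectable range and was well above background in all animals but floxed cryolesioned animal 2. It measured 6.41, 6.43, 6.60 and 6.39 in Il6-deficient cryolesioned animals and 6.23, 6.26, 6.39 and 6.67 in floxed cryolesioned animals. In controls it measured 6.90, 7.03, 6.79 and 6.89 in the Il6-deficient group and 6.93, 6.28, 6.87 and 6.85 in the floxed group. Il6-deficient cryolesioned animals all lay below their controls, whereas the floxed groups overlapped through floxed control animal 2. That animal was the only floxed control with Y-linked transcripts above background. The change in Il6-deficient animals was -0.72 ± 0.17 (95% confidence interval -1.12 to -0.32) with an adjusted p of 0.0818, which did not pass the threshold. In floxed animals it was -0.24 ± 0.17, and the interaction was -0.48 ± 0.24 (95% confidence interval -1.04 to 0.09, adjusted p = 1.00). The authors' value table and a fit of the separate channels did pass it in Il6-deficient animals, at -1.27 (adjusted p = 0.0473) and -0.50 (adjusted p = 0.0251), within a range of -2.36 to -0.50 in size and of 0.0251 to 0.321 in adjusted p over 17 alternatives. The lowest value, -2.36, came from the processed signals of the scanner software (adjusted p = 0.108). Mean levels of Wif1, cryolesioned minus control, differed by -0.45 in Il6-deficient and -0.34 in floxed animals, closer together than the fitted changes.

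The Dickkopf genes differed in detectability. Dkk2 was not well above background in any of the 8 cryolesioned animals and was well above it in 2 of 4 animals of each control group. Its log2 levels lay between 5.89 and 6.34 over all 16 animals. The groups overlapped in both genotypes. The fitted change in Il6-deficient animals was 0.00 ± 0.13 (95% confidence interval -0.30 to 0.30, adjusted p = 0.998), and no fold is given for a probe so near the detection limit.

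Dkk3 was bright in every animal. It measured 14.83, 14.55, 14.32 and 14.71 in Il6-deficient cryolesioned animals and 14.47, 13.96, 13.74 and 14.25 in floxed cryolesioned animals. In controls it measured 14.91, 14.90, 14.85 and 14.61 in the Il6-deficient group and 14.10, 13.72, 14.37 and 14.47 in the floxed group. By this probe, injured and uninjured animals overlapped within each genotype, and in controls all 4 Il6-deficient animals lay above the 4 floxed animals. The genotype difference in controls was 0.72 ± 0.23 (unadjusted p = 0.0175, adjusted p = 0.983), and the other probe gave 0.47 ± 0.17, so it failed the correction with either. In cryolesioned animals the genotype difference was 0.43 ± 0.23 (adjusted p = 0.619). The arrays that paired genotypes read 1.09 and 0.30 for Il6-deficient over floxed cryolesioned animals and 0.80 and 1.18 for Il6-deficient over floxed controls. For cryolesion in Il6-deficient animals the 2 probes disagreed in sign, at -0.36 ± 0.27 and 0.03 ± 0.20, with neither past the threshold. They disagreed in sign in floxed animals too, at -0.06 and 0.23, and by the other probe the floxed groups did not overlap, with 11.72 to 11.96 in cryolesioned animals and 11.36 to 11.66 in controls.

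**Figure D3:**
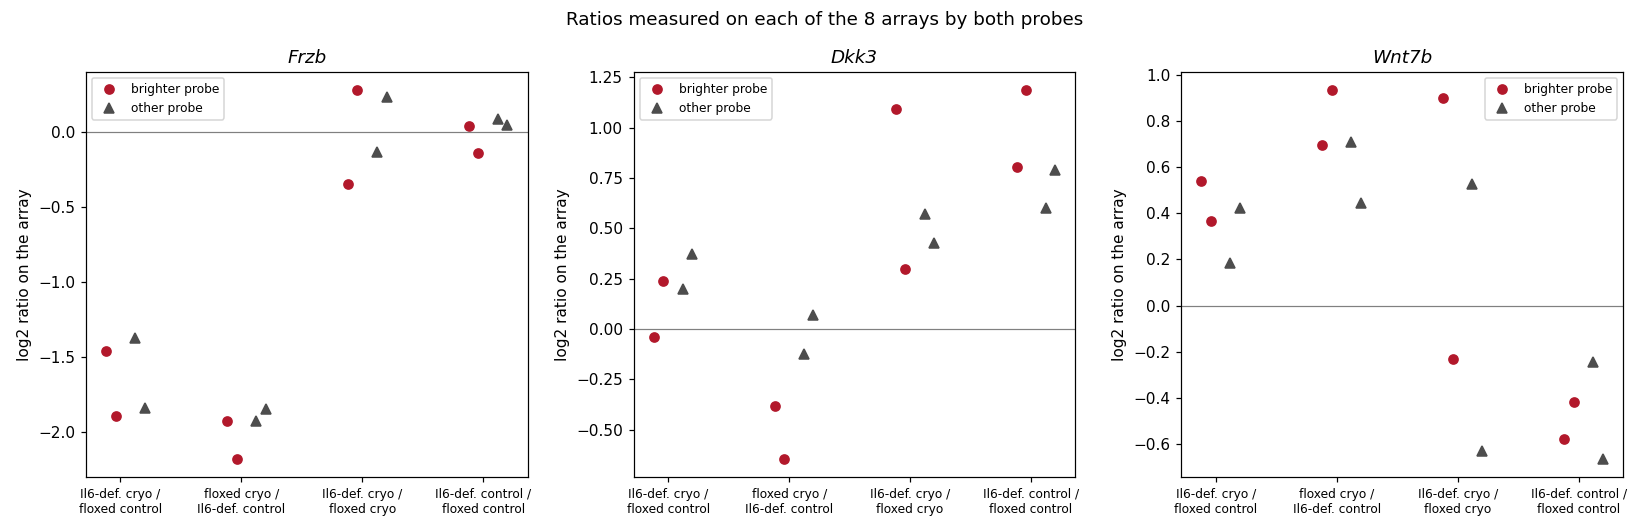
Log2 ratio (y axis) on each of the 8 arrays for the 3 genes with 2 probes, by pairing of groups (x axis). Circles are the brighter probe and triangles the other probe. Frzb lies between -2.18 and -1.38 on the 4 arrays that paired a cryolesioned with a control animal and between -0.35 and 0.28 on the other 4, while the genotype arrays of Dkk3 all lie above 0.

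Among the 4 ligands of the set, Wnt7b had the largest fitted change after cryolesion in Il6-deficient animals, without passing the test. It measured 11.23, 10.45, 10.66 and 10.72 in Il6-deficient cryolesioned animals and 11.08, 11.20, 10.33 and 10.69 in floxed cryolesioned animals. In controls it measured 10.08, 10.19, 10.38 and 10.27 in the Il6-deficient group and 10.66, 10.61, 10.12 and 10.35 in the floxed group. By this probe, Il6-deficient cryolesioned animals all lay above their controls, and the floxed groups overlapped. By the other probe the Il6-deficient groups overlapped too, with 7.69 to 8.71 in cryolesioned animals and 7.76 to 8.13 in controls. The fitted change was 1.05 ± 0.23 in Il6-deficient animals (95% confidence interval 0.49 to 1.60, adjusted p = 0.0721), and the other probe gave 0.64 ± 0.16. In floxed animals it was 0.22 ± 0.23.

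The interaction for Wnt7b was 0.83 ± 0.33 (95% confidence interval 0.05 to 1.61, adjusted p = 1.00), and with the other probe it was 0.40 ± 0.23. Il6 deficiency went with a lower Wnt7b estimate in controls, -0.55 ± 0.20 (adjusted p = 0.983), and with 0.28 ± 0.20 in cryolesioned animals (adjusted p = 0.685). The difference of mean levels after cryolesion was 0.53 in Il6-deficient animals. A fit of the separate channels gave 0.64 with an adjusted p of 0.0496, within a range of 0.64 to 1.27 in size and of 0.0496 to 0.404 in adjusted p over 18 alternatives.

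Wnt7a, the close relative of Wnt7b, measured 8.72, 8.32, 8.80 and 8.74 in Il6-deficient cryolesioned animals and 9.16, 9.04, 8.86 and 8.57 in floxed cryolesioned animals. In controls it measured 8.77, 8.56, 8.39 and 8.83 in the Il6-deficient group and 9.17, 9.40, 8.81 and 8.68 in the floxed group. The 4 groups overlapped. The fitted cryolesion change was 0.47 ± 0.13 in Il6-deficient animals (adjusted p = 0.121) and 0.05 ± 0.13 in floxed animals, but the mean levels of the Il6-deficient groups differed by 0.01. The genotype difference in controls was -0.53 ± 0.11 (unadjusted p = 0.00229, adjusted p = 0.983), and both control-side arrays read below 0, at -0.40 and -0.84.

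Wnt4 varied more in floxed cryolesioned animals, with an SD of 0.82, than in the other 3 groups, where it was 0.25 to 0.29. It ranged from 9.88 to 10.47 in Il6-deficient cryolesioned animals, from 9.21 to 11.14 in floxed cryolesioned animals, from 10.15 to 10.72 in Il6-deficient controls and from 9.94 to 10.59 in floxed controls. Its changes were 0.06 ± 0.45 in Il6-deficient and -0.06 ± 0.45 in floxed animals. Wnt10a ranged from 10.47 to 11.82 in Il6-deficient cryolesioned animals, from 9.97 to 11.58 in floxed cryolesioned animals, from 10.45 to 10.92 in Il6-deficient controls and from 9.97 to 10.43 in floxed controls. All Il6-deficient controls lay above all floxed controls for Wnt10a, but the fitted difference of 0.21 ± 0.31 had an adjusted p of 0.984. Its cryolesion change was 0.30 ± 0.35 in Il6-deficient animals and 0.23 ± 0.35 in floxed animals, where the mean levels differed by 0.71.

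The genes whose levels ran most like Frzb over the 16 animals included a Wnt ligand and a Frizzled receptor. Among 16848 named genes compared, Wnt9a had a Pearson r of 0.969 with Frzb. It was 0.965 for Fzd10os (named in relation to Fzd10) and 0.964 for Fzd10 itself. Gdf10, a secreted protein of the TGF-beta superfamily, had 0.960, and Kitl, the ligand of the Kit receptor, 0.958. Within groups, after group means were removed, these correlations were 0.76, 0.66, 0.74, 0.63 and 0.72 in the same order. All points share arrays and the step between injured and uninjured animals, so these are descriptions without a test. For Wnt7b, the most alike were Polr1a at 0.92, Dysf at 0.90 and Cd28 at 0.90, and with the other Wnt7b probe these were 0.67, 0.83 and 0.72.

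The other genes of the pathway were read in 5 lists of 86 genes. After cryolesion in Il6-deficient animals, 2.73% of all features were called (313 lower and 490 higher of 29362), and the calls of each list follow. Of other Wnt ligands, 1 of 12 tested fell and 0 rose: Wnt9a, at -1.21 ± 0.10 (adjusted p = 0.00520). Its value in floxed animals was -1.22. Of other secreted regulators, 2 of 11 tested fell and 0 rose. They were Dkkl1, a Dickkopf-like secreted protein, at -0.85 ± 0.11 (adjusted p = 0.0164), and Rspo1, a secreted protein that strengthens Wnt signalling through Lgr receptors, at -1.22 ± 0.18 (adjusted p = 0.0267). The list medians were -0.02 and -0.03, against -0.01 over all features.

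Of genes for Wnt secretion, receptors and co-receptors, 1 of 27 tested rose and 1 fell, with a list median of -0.06. Fzd10 fell by 0.70 ± 0.10 on the log2 scale (adjusted p = 0.0245), and Kremen1, a receptor for Dickkopf proteins, rose by 0.70 ± 0.13 (adjusted p = 0.0430). The other Frizzled genes ranged from -0.59 for Fzd2 to 0.21 for Fzd7 and none passed the test. Lrp5 and Lrp6 were at 0.09 and 0.01, and Wls, which carries Wnt proteins to the cell surface, was at -0.64 ± 0.22 (adjusted p = 0.190).

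Inside the cell, 0 of 18 genes of the beta-catenin pathway were called by limma (2 at an unadjusted p under 0.05, as were 5568 of all 29362 features), with a list median near 0 (0.0045), and Ctnnb1, which encodes beta-catenin, was at 0.19 ± 0.10 and Lef1 at 0.07 ± 0.10. Of 8 target genes, 2 rose and 0 fell, with a list median of 0.25. They were Ccnd1, which encodes cyclin D1, at 1.08 ± 0.09 (adjusted p = 0.00653), and Myc, at 1.44 ± 0.24 (adjusted p = 0.0344), both of which many other pathways also induce. Axin2, the target and feedback inhibitor most specific to the pathway, was at -0.51 ± 0.13 (adjusted p = 0.105). In floxed animals the 5 lists together held 4 lower calls and 1 higher call, and both genotype comparisons and the interaction held 0 calls in each list.

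**Figure D4:**
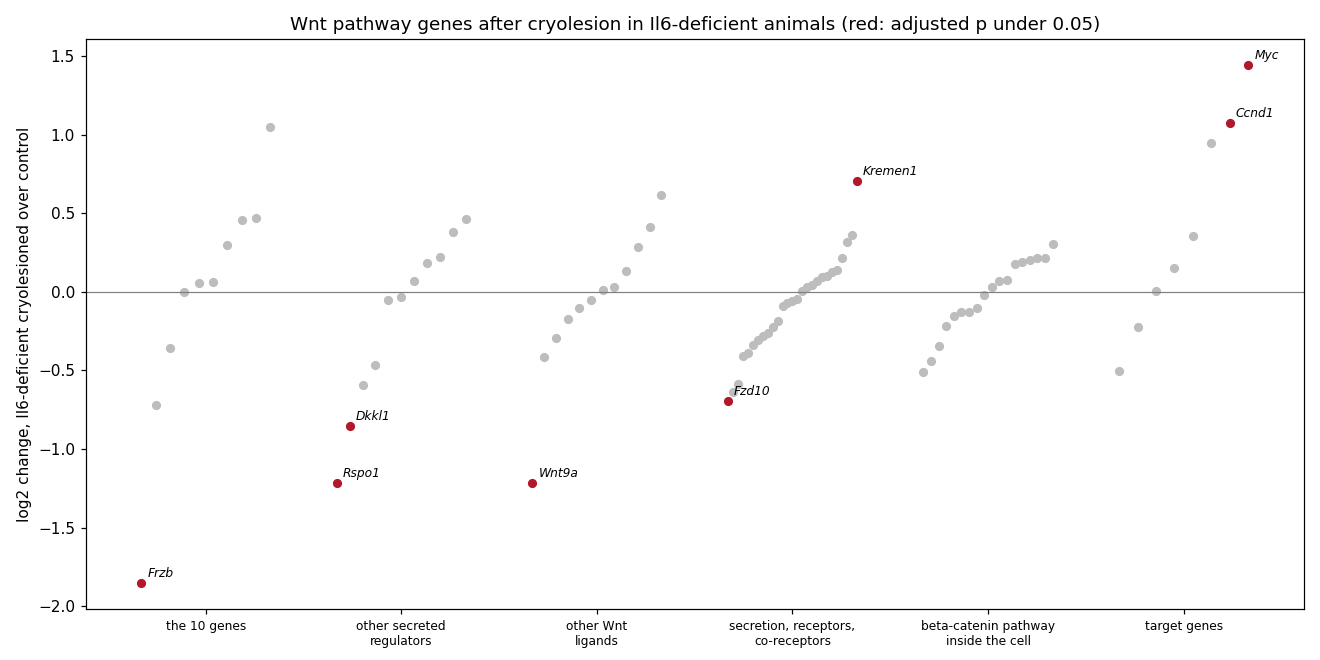
Fitted log2 change of Il6-deficient cryolesioned over Il6-deficient control animals (y axis) for the 10 genes and the tested members of the 5 other Wnt lists (x axis), ordered by change within each list. Red points have an adjusted p under 0.05 and are named: 5 fell, from Frzb at -1.85 to Fzd10 at -0.70, and 3 rose, Kremen1 at 0.70, Ccnd1 at 1.08 and Myc at 1.44.

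The calls for these 7 further genes depended on single arrays to different degrees. Over 17 alternatives, Wnt9a stayed past the threshold in 16 and Ccnd1 in 15, against 10 for Fzd10, 9 for Dkkl1, 8 each for Rspo1 and Myc, and 5 for Kremen1. The direction did not change in any of them. Without array 2 of the lesion side, the calls of Ccnd1, Dkkl1, Rspo1, Fzd10, Kremen1 and Myc were all lost, with adjusted p between 0.0520 and 0.132. Dkkl1, Rspo1, Fzd10 and Myc each lost the call in 6 of the 8 fits without 1 array, and Kremen1 in 7, all but the fit without array 1 of the deficient-lesion side. Wnt9a lost it in none of these.

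Markers of cell types moved with the injury as well, and their part in the Frzb result was not tested. Of 6 markers of reactive astrocytes, 6 rose in Il6-deficient animals, with a median of 2.83 (3.13 in floxed animals). Their mean log2 level was 10.73 to 11.40 in Il6-deficient cryolesioned and 11.20 to 12.05 in floxed cryolesioned animals, against 7.86 to 8.61 in Il6-deficient and 7.98 to 8.40 in floxed controls. Of 10 markers of homeostatic astrocytes, 2 fell, Aldoc and Glul, with a list median of -0.30 (-0.60 in floxed animals). Their mean level was 12.41 to 12.73 and 12.29 to 12.64 in the Il6-deficient and floxed cryolesioned groups, against 12.65 to 12.81 and 12.70 to 13.02 in the Il6-deficient and floxed controls.

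Of 12 neuron markers, 0 were called by limma in Il6-deficient animals (4 at an unadjusted p under 0.05, against 5568 of all 29362 features), with a list median of -0.42, and their mean level was 13.17 to 13.58 and 13.05 to 13.38 in the Il6-deficient and floxed cryolesioned groups, against 13.71 to 13.78 and 13.26 to 13.57 in the Il6-deficient and floxed controls. Of 6 markers of oligodendrocyte precursors, 1 fell, Gpr17. Their mean level was 9.30 to 9.78 in Il6-deficient and 9.03 to 9.74 in floxed cryolesioned animals. In controls it was 9.80 to 9.98 (Il6-deficient) and 9.83 to 10.05 (floxed), so every cryolesioned animal lay below every control. Of 10 markers of fibroblasts and meninges, 1 rose, Igfbp2. Of 7 markers of blood-borne myeloid cells, 3 rose, and of 7 microglia markers 0 were called (4 at an unadjusted p under 0.05). Of 8 endothelial and mural markers and of 6 oligodendrocyte markers 0 were called (5 and 3 at an unadjusted p under 0.05), with list medians of 0.33 and -0.64. Markers of choroid plexus, striatum and hippocampus, which a dissection could include, had 0 calls of 6, 6 and 5 tested (0, 0 and 2 at an unadjusted p under 0.05). Their list medians were -0.58, -0.24 and -0.43. The markers of astrocytes, neurons, precursors and fibroblasts were well above background in all 16 animals, so none of them was absent in either state.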

How the data were processed

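RNA of 16 mice was measured on 8 Agilent 2-colour arrays. Per the file headers, Agilent Feature Extraction 10.7.3.1 made the scanner files, in which red is Cy5 and green is Cy3. The deposited scanner files hold median spot and background intensity values without normalization, processed intensities, which the scanner software background-subtracted and dye-normalized, and a log10 ratio of red over green. That log10 ratio, deposited by the authors, was used only to settle the scale and direction of the value table, in which the authors deposited log2 ratios. The table's columns correlated at 0.966 to 0.977 with the ratios used here, with slopes of 1.11 to 1.25 and column medians of -0.018 to 0.016; its exact scaling is unknown.

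Background was corrected with normexp on median signals (offset 50), and ratios were normalized by loess within each array. The design written for the tests named mean signals, but the files used here hold medians. Control and outlier spots (115 to 194 per array) had weight 0 and were left out, and 0 spots were saturated. Probes were named through RefSeq accessions (GRCm38.p6): 32994 of 56605 had a name. Probes well above background in at least 4 of 16 channels were kept, and the brightest probe stood for a gene, which gave 29362 features (16852 named genes). The model, in limma 3.58.1 (lmFit, eBayes) under R 4.3.3, had 3 coefficients for groups and a dye intercept (4 residual and 2.95 prior degrees of freedom), and p-values were adjusted by Benjamini-Hochberg over all features at 0.05. The script was tested on simulated data. The level of an animal is its channel's log2 intensity once loess and Aquantile had been applied. Promoter windows came from RefSeq, and figures were drawn with matplotlib 3.10.9.

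The 8 arrays shared 1 slide and 1 scan, and neither could be tested as a batch. The labels call the 4 animals of a group biological replicates. Members and lists were chosen with earlier results of these data known. Named genes were the 10 members, each gene of the other Wnt lists with an adjusted p under 0.05 for cryolesion in Il6-deficient animals or for a genotype comparison, Axin2, Lef1, Ctnnb1, Wls, the Frizzled genes, Lrp5 and Lrp6, the 5 genes most correlated with Frzb and the 3 most correlated with Wnt7b; marker genes past the threshold were named after their values were seen. Alternatives were median centring, an offset of 16, processed signals, no filter or one of 8 channels, the authors' table, separate channels, sex, a replicate block, the other probe and leaving out each array.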

Additional observations from a re-analysis of the deposited data

Results flagged for a closer look

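In 5 of 40 sets of 4 animals, 1 animal lay far from the other 3 by Dixon's ratio, and chance alone gives about 1 in 20 such sets. Frzb in floxed cryolesioned animal 3 was at 7.93, against 6.93 to 7.05 in the other 3. Wif1 in Il6-deficient cryolesioned animal 3 was at 6.60, against 6.39 to 6.43. Wnt7a in Il6-deficient cryolesioned animal 2 was at 8.32, against 8.72 to 8.80. Sfrp1 in floxed control animal 1 was at 6.91, against 6.72 to 6.73. Wif1 in floxed control animal 2 was at 6.28, against 6.85 to 6.93 in the other 3, and this animal was the one that made the floxed groups overlap for Wif1. It was also the only floxed control with Y-linked transcripts above background, while the other 3 had Xist. The part of sex in this value was not tested.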

How the results depend on the processing

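The count of features called for cryolesion in Il6-deficient animals was 803, and it was 358 with median centring, 446 with processed signals and 3138 with separate channels. In floxed animals the count was 896, and it was 358, 446 and 4902 under the same settings. Leaving out each array in turn gave 37 to 1187 in Il6-deficient and 57 to 2140 in floxed animals, with the lowest counts without lesion-side array 2. The count moved by over 1.5 times in both genotypes without control-side array 1 (115 and 60, Il6-deficient and floxed animals), floxed-lesion-side array 1 (173 and 173) or 2 (251 and 405), lesion-side array 2 (37 and 57) or deficient-lesion-side array 2 (127 and 168), in Il6-deficient animals alone without lesion-side array 1 (253), and in floxed animals alone without control-side array 2 (2140). Il6 deficiency gave 1 call with separate channels in cryolesioned animals and 1 in controls, against 0. Without 1 array, calls for Il6 deficiency in controls ranged from 0 to 3 and for the interaction from 0 to 1, in both cases highest without control-side array 2. With the animal number as a replicate block, 6 features were called in Il6-deficient and 337 in floxed animals, and Frzb in Il6-deficient animals was at -1.62 (adjusted p = 0.221), with 2 residual degrees of freedom left; the 7 further Wnt genes named also missed the threshold with that block (adjusted p from 0.195 to 0.389). Sex as a covariate gave the same values as leaving out control-side array 2 for cryolesion in Il6-deficient animals, so these are 1 alternative there. Same-numbered animals correlated at -0.25 to 0.53 over 24 pairs, 11 above 0.1, and 7 of 16 animals correlated best with their own number, so the numbers were not taken as pairing. Frzb in Il6-deficient animals lay between -1.99 and -1.68 without 1 array. It kept its direction under all 18 alternatives (-2.58 to -1.62), 14 of them past the threshold. Over the other named genes the direction of every called change was kept. Dkk2, Sfrp1, Wnt4, Wnt10a and Dkk3, none of them called, changed sign under some alternatives for cryolesion in Il6-deficient animals. The causes were not tested. Low signal over background limits Dkk2, Wif1 and Il6.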
